A study of Homo sapiens with 4 samples.

Results

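Cohesin loops of GM12878 cells were compared between a library of cells given aphidicolin (APH) and a library of cells given its vehicle, dimethyl sulfoxide (DMSO). These are 2 of the 4 libraries of the series. The loops compared are those listed in both libraries between the same pair of 5 kb bins, which were 13305 of the 31750 loops listed in either. GM12878 is an established B lymphoblastoid line transformed with Epstein-Barr virus. The APH culture was labelled with 0.4 µM aphidicolin for 18 h and the DMSO culture with the solvent alone. A culture labelled with water (H2O), likewise without a drug, serves only as a reference for how far libraries of untreated cells lie apart. The remaining library of the series, labelled with hydroxyurea (HU, 0.2 mM for 18 h), was used only to pick loops listed in all 4 libraries. All cultures are of this 1 line, each group has 1 library, and the sample titles name another lymphoblastoid line. Every difference below therefore compares libraries and has no replicate check. The question posed by the design is how cohesin loops differ when DNA replication is slowed.

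Cohesin is a ring complex that holds sister chromatids together and folds interphase chromatin by extruding loops, which often stop where CTCF is bound. SMC1 is one of its core subunits, and HiChIP with an SMC1 antibody reads ligated contacts between places that cohesin occupies. Aphidicolin inhibits the replicative DNA polymerases, and partial inhibition slows forks and is known for breaks at common fragile sites, many of which lie in very long, late replicating genes.

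The regulatory sequences most directly tied to the largest differences were promoters that lay inside a loop anchor, shown here 5′ to 3′ on the strand of the gene from RefSeq (GRCh38.p14), 250 bases before to 50 after the start. A listed start of KCNH2 was the only one in the 10 anchors named below as highest and lowest (chr7:150960007-150960306, minus strand). The 22132 promoter windows cover 15812 genes, so a gene can have several listed starts. Whether this is the main start of KCNH2 was not tested. S100A14 (chr1:153616276-153616575, minus strand) was higher and CHTF18 (chr16:788370-788669, plus strand) lower through a single loop at its own start. MRPL4 (chr19:10251701-10252000, plus strand) and DAPK1 (chr9:87497617-87497916, plus strand) are 2 of 4 promoters that matched a loose CTCF core pattern and lay in an anchor of a called loop, picked after their values were seen. They are shown for the pattern and are not among the largest differences. The MRPL4 anchor had 96 counts in APH and 54 in DMSO (log2 ratio 0.52, 0.03 to 1.03) and was not called. The DAPK1 anchor had 17 against 27 (-0.97, -1.94 to -0.05), under the 100 counts required of an anchor. Capitals mark the match to this pattern, which was searched on both strands as CCA, any 2 bases, AG, any 2 bases and GGC. With its open bases the pattern also matches sequences that are not CTCF motifs.
KCNH2: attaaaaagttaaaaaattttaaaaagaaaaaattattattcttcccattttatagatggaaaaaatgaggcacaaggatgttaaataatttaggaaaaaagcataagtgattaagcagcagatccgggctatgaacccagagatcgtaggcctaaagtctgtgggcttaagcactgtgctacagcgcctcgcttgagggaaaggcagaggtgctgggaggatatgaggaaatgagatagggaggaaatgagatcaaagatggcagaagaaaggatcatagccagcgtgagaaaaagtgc
S100A14: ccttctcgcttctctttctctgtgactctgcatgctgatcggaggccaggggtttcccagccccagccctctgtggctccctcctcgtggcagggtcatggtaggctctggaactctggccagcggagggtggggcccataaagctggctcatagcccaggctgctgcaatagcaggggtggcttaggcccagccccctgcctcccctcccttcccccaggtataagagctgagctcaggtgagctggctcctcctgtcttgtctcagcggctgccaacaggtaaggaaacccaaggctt
CHTF18: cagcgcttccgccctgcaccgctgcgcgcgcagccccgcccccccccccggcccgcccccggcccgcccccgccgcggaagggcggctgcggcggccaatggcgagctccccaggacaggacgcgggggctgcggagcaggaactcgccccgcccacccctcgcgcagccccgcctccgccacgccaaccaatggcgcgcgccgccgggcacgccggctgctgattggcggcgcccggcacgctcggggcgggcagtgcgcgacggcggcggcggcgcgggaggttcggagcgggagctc
MRPL4: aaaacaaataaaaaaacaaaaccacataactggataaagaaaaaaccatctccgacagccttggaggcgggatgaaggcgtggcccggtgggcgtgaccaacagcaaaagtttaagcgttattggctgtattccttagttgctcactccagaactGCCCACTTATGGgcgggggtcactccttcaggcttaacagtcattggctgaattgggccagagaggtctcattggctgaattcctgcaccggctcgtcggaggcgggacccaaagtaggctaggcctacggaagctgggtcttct
DAPK1: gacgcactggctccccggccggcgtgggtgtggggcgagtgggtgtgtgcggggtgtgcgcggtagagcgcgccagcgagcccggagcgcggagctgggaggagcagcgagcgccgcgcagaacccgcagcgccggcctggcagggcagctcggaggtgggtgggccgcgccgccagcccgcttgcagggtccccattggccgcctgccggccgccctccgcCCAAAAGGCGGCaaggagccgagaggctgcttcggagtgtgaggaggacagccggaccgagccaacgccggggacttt

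A match to this pattern was found in 2.52% of 22132 promoters in the table, which covers 79.2% of protein-coding genes and none on chromosome 8. It was present in 3.92% (3.21 to 4.75) of the 2575 promoters inside an anchor of a shared loop, and in 2.34% (2.13 to 2.56) of the 19557 outside. Promoters in anchors had a GC content of 64.3% against 60.5% outside, and its part in this difference was not tested. Of the 63 promoters in anchors of loops called higher in APH, 2 held a match, and of the 58 in anchors of loops called lower, 2 did. The KCNH2, S100A14 and CHTF18 windows held no match, at a GC content of 39.3%, 62.0% and 82.7%. A match describes letters only and is not a measured binding site.

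The DMSO list holds 17660 loops with 449565 contact counts, the APH list 27395 loops with 732695, and the H2O list 22446 loops with 575756. Only called loops are listed, with at least 12 counts each, so the read depth is unknown and a pair missing from a list has no measured level. Over the shared loops the totals were 460102 in APH and 371806 in DMSO, and ratios are relative to these totals. The choice matters, since scaling by all listed counts would lower every APH vs DMSO ratio by the same amount, a log2 shift of -0.40. As a check of the cell type, 7 of 10 B cell marker genes carried a listed loop in DMSO and 8 of 10 in APH. For T cell markers these numbers were 3 and 5, and for myeloid and erythroid markers also 3 and 5. A loop on a gene is not expression, and the B cell genes without a listed loop in DMSO included CD79B and BANK1.

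Most DMSO loops were listed in APH as well, and the ones that were not were mainly weak. Of the loops listed in DMSO alone 85.9% had under 24 counts, and the share found again was lowest in the shortest and the longest class. Of the DMSO loops 75.3% (95% exact binomial interval 74.7 to 76.0) were found in the APH list, which is the longer. The share was 56.0% for loops with 12 to 15 counts in DMSO, 75.9% with 16 to 23, 88.9% with 24 to 47 and 95.8% with 48 or more. By span it was 56.5% from 10 to 30 kb, 76.9% from 30 to 100 kb, 78.5% from 100 to 250 kb, 74.8% from 250 to 500 kb and 62.5% (58.1 to 66.6) at 500 kb or more. The H2O list held 48.1%, 68.1%, 75.6%, 75.9% and 70.7% (66.6 to 74.6) of the same DMSO loops. The APH list thus held more of the DMSO loops under 250 kb than the H2O list did, and fewer of those of 500 kb or more, although it is longer than the H2O list.

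Chromosomes differed little in this share, from 71.1% on chromosome 13 to 78.2% on chromosome 19. Loops that the caller put in a broad cluster were found again more often, at 82.9%, than those in a sharp cluster, at 74.3%, or alone, at 72.9%. The APH list grouped its loops into larger clusters, with 2.34 loops per cluster against 2.06 in DMSO and 2.23 in H2O. Its busiest anchor carried 22 loops, against 16 in DMSO and 21 in H2O. These measures move with the length of a list, and their part in the difference was not tested.

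Loops listed in APH alone numbered 14090, or 51.4% of its list, and those in DMSO alone 4355, or 24.7%. Both kinds were weak, with a median of 17 and 15 counts, and had a median span of 85 and 100 kb. Loops inside a single gene made up 21.4% of the APH-only and 20.5% of the DMSO-only loops, against 14.2% of the shared ones. Of the APH-only loops 36.2% lay within 1 bin at both ends of a DMSO loop, and of the DMSO-only loops 50.1% lay so near an APH loop. Only 2593 APH-only and 417 DMSO-only loops had neither anchor in the other list, or 18.4% and 9.58% of each kind.

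Even the most counted unmatched loops stood close to the lowest ratio of count to expected count in either list, 2.00. The threshold of the loop caller is not stated. Among loops with 48 counts or more, 224 were APH-only and 63 DMSO-only, with a median of 2.36 and 2.23 times the expected count. Of these 84.4% and 98.4% were under 3 times the expected count, against 10.3% of shared loops of that size with APH values. The APH-only loop with most counts, 126, spanned 15 kb beside USP3, which encodes a ubiquitin protease. A 10 kb loop inside GNG7, a G protein gamma subunit gene, had 115 counts in APH and 108 in H2O. The other 3 APH-only loops with most counts joined bins off protein-coding genes on chromosomes 16, 1 and 8, with 104, 103 and 94 counts. On the DMSO side the highest count, 133, was in a 20 kb loop off genes on chromosome 3. A 25 kb loop on chromosome 15 had 103 in DMSO and 94 in H2O, and a 10 kb loop inside GPATCH2L had 93. A 15 kb loop on chromosome 9 had 82 in DMSO and 102 in H2O, and a 65 kb loop to the phosphatase gene DUSP22 had 79 and 72. Over all unmatched loops, H2O listed 28.7% of the APH-only and 33.7% of the DMSO-only loops.

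Some genes gathered many unmatched loops. ABTB2 carried 21 APH-only loops, with 27 loops listed in APH and 10 in DMSO. ITPR1, the gene of an inositol trisphosphate receptor that releases calcium from stores, carried 18, with 32 listed in APH and 18 in DMSO. PTPRJ, a receptor tyrosine phosphatase gene, also carried 18, with 24 against 7. ALPK2 and GNG7 carried 17 each, with 30 against 19 and 33 against 25 listed. Over all genes the APH list held 1.54 times as many loops as the DMSO list. In the other direction RAPGEF1, an exchange factor gene of the GTPase RAP1, carried 10 DMSO-only loops, GNG7 and THADA 9 each and MYO1D 8. Several genes shared the next place with 7 each, among them FYN, a kinase gene of lymphocyte signalling, with 21 loops listed in DMSO and 23 in APH. GNG7 was thus among the genes with most unmatched loops on both sides.

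In the loops that both libraries listed, short loops had relatively more contacts in APH and long loops relatively fewer. Pooled counts had a log2 ratio of APH to DMSO of 0.08 (95% interval 0.06 to 0.10) for 729 loops of 10 to 30 kb and 0.07 (0.06 to 0.08) for 5160 loops of 30 to 100 kb. It was -0.04 (-0.05 to -0.03) for 5355 loops of 100 to 250 kb, -0.17 (-0.19 to -0.15) for 1735 loops of 250 to 500 kb and -0.23 (-0.27 to -0.18) for 326 loops of 500 kb or more. With H2O vs DMSO the same classes stood at 0.04, 0.01, -0.01, -0.02 and 0.00. With APH vs H2O they stood at 0.02, 0.06, -0.03, -0.14 and -0.21, though this comparison shares a library with each of the others. Intervals cover counting error only, and fewer cells with a loop cannot be told apart from fewer contacts per cell in such bulk libraries. With the scaling by all listed counts every class would be lower in APH, and the order of the classes would stay.

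**Figure D1:**
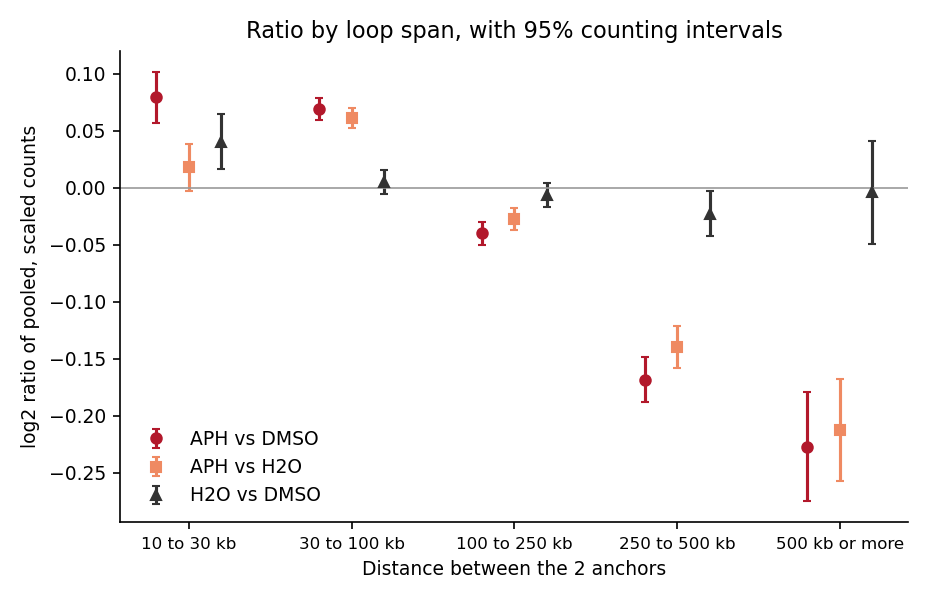
The log2 ratio of pooled, scaled contact counts (vertical axis) is plotted for 5 classes of loop span (horizontal axis) in APH vs DMSO (circles), APH vs H2O (squares) and H2O vs DMSO (triangles), with 95% counting intervals, 1 library a group. APH vs DMSO goes from 0.08 at 10 to 30 kb to -0.23 at 500 kb or more, while H2O vs DMSO lies between -0.02 and 0.04.

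The deposited expected count moved with span as well. Loops of 500 kb or more minus loops under 30 kb gave a log2 difference of -0.31 (-0.36 to -0.25), and -0.086 (-0.14 to -0.03) once each count was divided by its expected count. The median log2 ratio of observed over expected was 0.00, 0.03, 0.00, -0.05 and -0.03 from the shortest to the longest class. Its part in the pattern was not tested further.

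Against DMSO the order of short and long loops was the same on each of the 23 chromosomes. Loops of 250 kb or more minus loops under 100 kb gave a log2 difference below 0 on all 23, from -0.39 on chromosome 14 to -0.11 on chromosome 13, with a median of -0.25. For H2O vs DMSO it was below 0 on 17 of 23, with a median of -0.05. For APH vs H2O it was below 0 on 21 of 23, with a median of -0.19, and slightly above 0 on chromosomes 19 and 21. Long loops are few on small chromosomes, with 20 on chromosome 19 and 23 on chromosome 21, against 205 on chromosome 1. Whole chromosomes differed far less, from -0.05 on chromosome 18 to 0.04 on chromosome 11. The gene-rich chromosomes 16, 17, 19 and 22 stood together at 0.00 (-0.01 to 0.01) and the gene-poor chromosomes 4, 13, 18 and X at -0.01 (-0.03 to 0.01). Relative to loops of the same span these were -0.02 and 0.01.

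**Figure D2:**
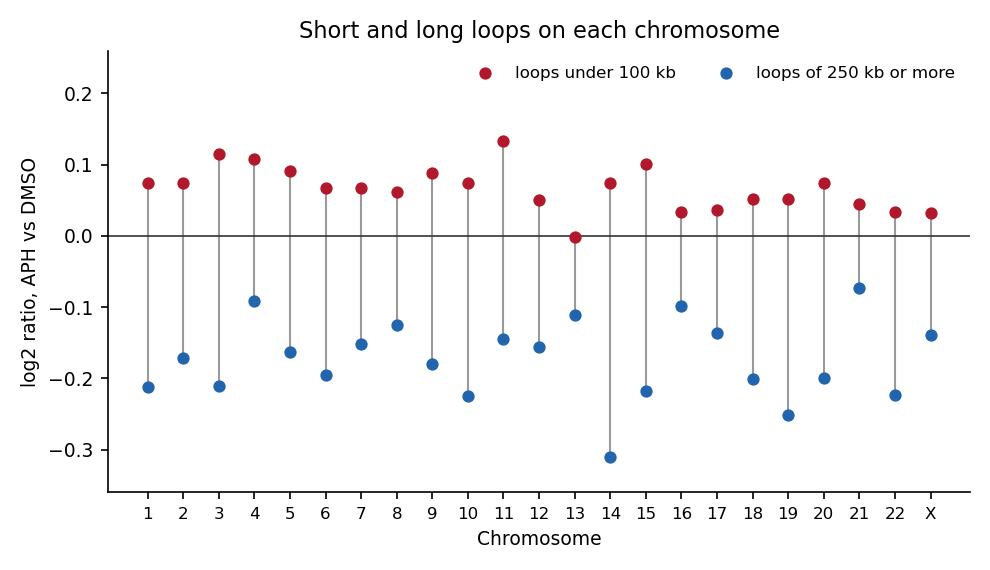
For each chromosome (horizontal axis) the log2 ratio of pooled, scaled counts in APH vs DMSO (vertical axis) is shown for loops under 100 kb (red) and of 250 kb or more (blue), joined by a line. On all 23 chromosomes the long loops lie below the short ones, by 0.11 to 0.39.

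Where the anchors lay relative to genes made little difference. Loops inside a single gene stood at a log2 ratio of 0.01 (-0.01 to 0.02), loops joining 2 different genes at -0.02 (-0.03 to -0.01), loops with 1 anchor on a gene at 0.00 (-0.01 to 0.01) and loops off genes at 0.02 (0.01 to 0.04). Relative to loops of the same span these were -0.03, -0.02, 0.01 and 0.03, and for H2O vs DMSO 0.02, -0.01, 0.00 and 0.00. The 228 loops that joined a pair of transcription starts stood at -0.01 (-0.06 to 0.04), and the 2745 loops with 1 start at 0.00 (-0.01 to 0.02). Loops were also grouped by strength, taken from the H2O count so that neither count of the ratio set the order. These classes cover the 11002 shared loops also listed in H2O, and their ratios are relative to the totals over those loops. Their values relative to the same span, given last, use all shared loops as the base. Loops with 12 to 19 counts in H2O stood at -0.07 (-0.09 to -0.06), those with 20 to 26 at 0.00, those with 27 to 38 at 0.01 and those with 39 to 258 at 0.02 (0.01 to 0.03). The weak loops were also the longer ones, with a median span of 145 kb against 85 kb in the strongest class, and relative to the same span the classes stood at -0.03, 0.03, 0.02 and 0.01 from weakest to strongest.

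A single loop was called when its ratio was at least 1.5-fold and its 95% interval excluded 1. In APH 263 loops were called higher, 1.98% of those compared, and 238 lower, 1.79%. In H2O vs DMSO 1.79% of 12470 loops were called in either direction, against 3.77% in APH vs DMSO. Counting error alone puts up to 5% of loops outside such an interval when nothing differs, and the interval alone excluded 1 for 4.34% of loops in APH vs DMSO and 2.10% in H2O vs DMSO. Scaled by all listed counts 1756 loops were called and 1.14% of them were higher, in place of 52.5%. Loops called higher had a median span of 75 kb and loops called lower 165 kb, against 110 kb for all shared loops. By class 2.74% of loops of 10 to 30 kb were called higher and 0.686% lower, while at 500 kb or more 0.307% were higher and 3.99% lower.

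**Figure D3:**
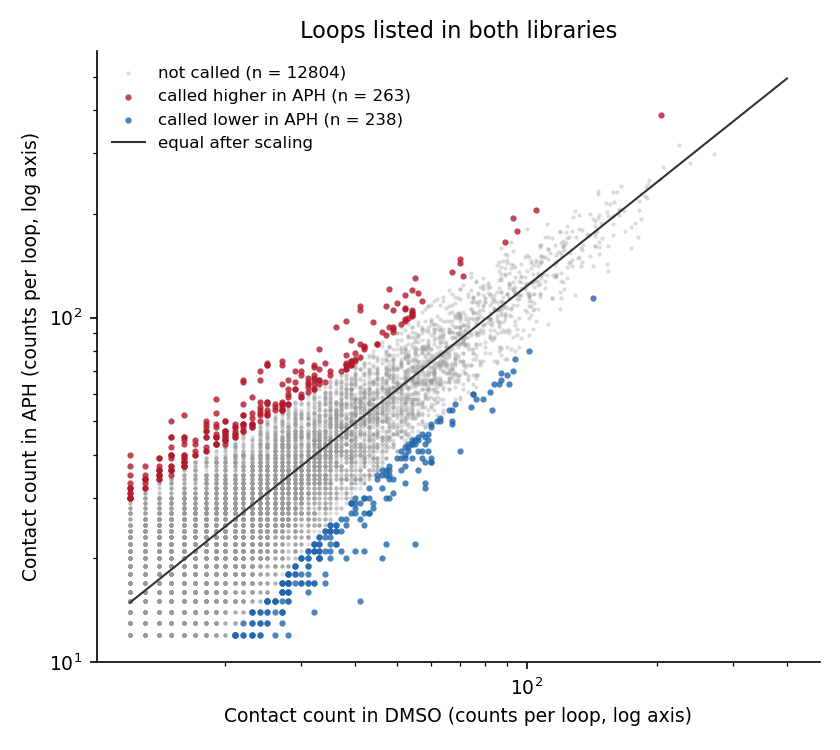
Each point is a loop listed in both libraries, with its contact count in DMSO (horizontal, log axis) and in APH (vertical, log axis), and the line marks equal counts after scaling. The 263 loops called higher in APH (red) and the 238 called lower (blue) lie along both edges of the cloud, and neither list holds counts under 12.

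The loops highest in APH were mostly of moderate span. A 105 kb loop on chromosome 17 (anchors chr17:44530001-44535000 and chr17:44635001-44640000, build hg38) had 40 counts in APH, 12 in DMSO and 17 in H2O, a log2 ratio of APH to DMSO of 1.43 (0.47 to 2.50). A 55 kb loop on chromosome 10 had 50, 15 and 27 counts in the same order (1.43, 0.57 to 2.37), and a 40 kb loop on chromosome 4 had 52, 16 and 24 (1.39, 0.56 to 2.30). After scaling, H2O lay nearer to DMSO than to APH in the first and the third of these loops and about midway in the other. A 115 kb loop elsewhere on chromosome 4 had 37, 12 and 26 counts (1.32, 0.35 to 2.39), and there the H2O count was more than 2 times that of DMSO. A 55 kb loop at THSD4, a gene of a thrombospondin-type matrix protein on chromosome 15, had 58, 19 and 28 counts (1.30, 0.53 to 2.13), but after division by the expected count it was not called (0.56).

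The loops lowest in APH were longer, with 1 exception. A 250 kb loop on chromosome 2 with an anchor on POLR1A, the gene of the largest RNA polymerase I subunit, had 15 counts in APH, 41 in DMSO and 36 in H2O, a log2 ratio of -1.76 (-2.72 to -0.87). A 415 kb loop from LRRC28 to MEF2A, a MADS-box transcription factor gene, had 22, 55 and 44 counts (-1.63, -2.41 to -0.89). A 320 kb loop with an anchor on TFDP2, which encodes a partner of E2F factors, had 12, 28 and 24 (-1.53, -2.64 to -0.51). In these 3 loops H2O stood at -0.30, -0.44 and -0.34 against DMSO, and APH lay below both. A 115 kb loop on chromosome 10 had 20, 46 and 39 counts (-1.51, -2.34 to -0.72). A 505 kb loop from SYNE2 to the oestrogen receptor gene ESR2 had 14, 32 and 14 (-1.50, -2.52 to -0.55), so that there H2O was as low as APH.

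The loop with most counts in the comparison was also called. It joins COXFA4L3 to SLC30A4-AS1 over 25 kb of chromosome 15 and had 388 counts in APH, 204 in DMSO and 258 in H2O, a log2 ratio of 0.62 (0.37 to 0.87). The call ended relative to loops of the same span (0.54), against H2O (0.40), after division by the expected count (0.36) and with all listed counts as the scale (0.22). The next most counted loops, both on chromosome 1, had 299, 271 and 246 counts (-0.17, -0.41 to 0.08) and 318, 225 and 238 (0.19, -0.06 to 0.44), and neither was called. Neighbours of called loops were also measured. The 610 uncalled loops that shared an anchor with a loop called higher stood at 0.04 (0.01 to 0.07), and the 662 that shared one with a loop called lower at -0.06 (-0.08 to -0.03). Relative to loops of the same span these were 0.022 and -0.045.

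Counts summed per anchor gave 5220 anchors with at least 100 counts in both libraries together, of which 114 were called higher in APH (2.18%) and 67 lower (1.28%). In H2O vs DMSO 1.02% of anchors were called in either direction, against 3.47% in APH vs DMSO, and the interval alone excluded 1 for 3.93% and 9.79%. Scaled by all listed counts, 1112 anchors were called and 0.360% of them were higher, in place of 63.0%. The listed start of KCNH2 printed above, in the gene of a cardiac potassium channel, lay in 1 of the highest anchors. That anchor had 75 counts in APH and 30 in DMSO in 1 loop of 25 kb. Its log2 ratio was 1.01 (0.39 to 1.68), with -0.22 for H2O vs DMSO. With all listed counts as the scale its call ended (0.62, -0.01 to 1.28). The other 4 highest anchors lay off genes, at 1.16 and 1.09 on chromosomes 4 and 3, 1.06 on chromosome 2 and 1.03 on chromosome 7. The lowest anchors lay on LRRC28 (39 against 74 counts, -1.23), off genes on chromosome 10 (38 against 69, -1.17), on METTL8 (57 against 90, -0.97), on CCDC33 (54 against 83, -0.93) and on PACC1 (41 against 62, -0.90). The METTL8 anchor lost its call with anchors matched within 1 bin (-0.61, -1.30 to 0.07), at 24 counts or more (-0.61), with a stricter adjusted p-value (-0.61) and after division by the expected count (-0.56). Against H2O the calls of the chromosome 4 anchor (0.49) and of those on CCDC33 (-0.52) and PACC1 (-0.35) ended. None of these 5 lower anchors held a transcription start in the promoter table.

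Anchors that join many loops varied less. The SD of the log2 ratio over anchors fell from 0.33 for 714 anchors with a single loop to 0.27 with 2 to 4 loops, 0.19 with 5 to 9 and 0.11 for the 17 anchors with 10 or more loops, none of which was called. In H2O vs DMSO the same classes gave 0.26, 0.22, 0.14 and 0.09. Anchors with more loops also hold more counts.

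Counts summed per gene, over loops with an anchor on the gene body, gave 2954 genes with at least 100 counts, and 33 were called higher in APH (1.12%) and 26 lower (0.880%). In H2O vs DMSO 1.14% of 2729 genes were called in either direction, against 2.00% in APH vs DMSO, and the interval alone excluded 1 for 4.25% and 9.07%. Scaled by all listed counts 587 genes were called, all of them lower, so that every gene called higher below is so relative to the shared loops. Where genes carried an identical set of loops they were taken as 1 place, and of 2742 places 1.20% were called higher and 0.875% lower. SLCO3A1, an organic anion transporter gene, was highest, with 73 counts in APH and 31 in DMSO in 2 loops, a log2 ratio of 0.93 (0.30 to 1.58). Most of this came from a 130 kb loop with 53 against 19 counts, which had 23 in H2O. CFAP77, a gene of cilia and flagella, had 81 against 36 counts (0.86, 0.28 to 1.47), and its 165 kb loop had 23 counts in H2O against 35 in APH and 17 in DMSO.

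The calcium-binding protein genes S100A14 and S100A13 share an anchor. A 45 kb loop at the S100A14 start printed above had 86 counts in APH, 39 in DMSO and 47 in H2O, a log2 ratio of 0.83 (0.27 to 1.42). With a second loop of 55 kb, at 48, 24 and 39 counts, S100A13 stood at 0.78 (0.34 to 1.24). KIF19, a kinesin gene, was higher in each of its 3 loops to neighbouring bins of DNAI2, an axonemal dynein gene, with 56 against 22, 65 against 39 and 45 against 15 counts (0.82, 0.42 to 1.23). H2O had 28, 38 and 22 counts in these loops, close to DMSO. ACP3, the gene of prostatic acid phosphatase, was higher in each of 4 loops and stood at 0.78 (0.43 to 1.14), led by a 45 kb loop with 108 counts in APH, 41 in DMSO and 57 in H2O. C1QTNF1, a secreted C1q-family protein gene, stood at 0.76 (0.14 to 1.40) with 69 against 33 counts. IP6K3, an inositol hexakisphosphate kinase gene, stood at 0.75 (0.23 to 1.29), mainly through a 20 kb loop within the gene that had 66 counts in APH, 24 in DMSO and 42 in H2O. ANAPC16, a subunit gene of the anaphase-promoting complex, stood at 0.76 (0.20 to 1.34) with 84 against 40 counts in 2 loops. H2O stood at 0.71 against DMSO there, and APH vs H2O was 0.06 (-0.42 to 0.53), so APH and H2O lay together there.

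Several of these calls depended on the setting. With all listed counts as the scale all 10 ended. After division by the expected count those of S100A13 (0.23), S100A14 (0.30), KIF19 (0.46), ACP3 (0.49) and IP6K3 (0.56) ended. KIF19 also lost its call at 24 counts or more (0.42) and with a stricter adjusted p-value (0.43), CFAP77 over loops listed in all 4 libraries (0.71, -0.16 to 1.64) and C1QTNF1 with APH counts thinned (0.63, -0.02 to 1.31). Against H2O the calls of S100A13 (0.45), IP6K3 (0.49) and C1QTNF1 (0.54) ended, beside that of ANAPC16.

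**Figure D4:**
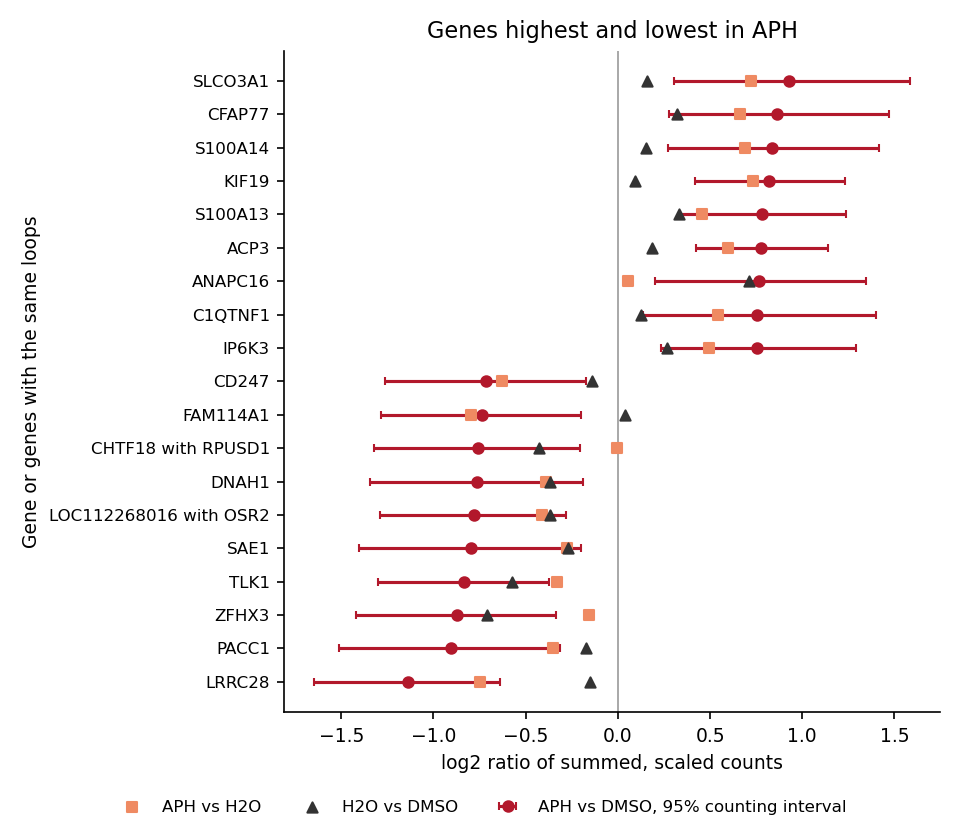
Of the 10 genes highest and the 10 places lowest in APH vs DMSO by the rule for named genes, the 19 reported (vertical axis) are shown with the log2 ratio of summed, scaled counts (horizontal axis) for APH vs DMSO with its 95% counting interval (circles), APH vs H2O (squares) and H2O vs DMSO (triangles), 1 library a group. The intervals of all 19 lie on 1 side of 0, and the triangles of ANAPC16, ZFHX3 and TLK1 lie farthest from 0, at 0.71, -0.71 and -0.57.

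Lower genes were led by LRRC28, a leucine-rich repeat gene, with 54 counts in APH and 96 in DMSO in 3 loops of 415 to 430 kb to MEF2A, a log2 ratio of -1.14 (-1.65 to -0.64). Over the loops of the gene listed in both libraries of each comparison, H2O vs DMSO was -0.15 and APH vs H2O -0.75 (-1.20 to -0.31). PACC1, a proton-activated chloride channel gene, had 41 against 62 counts (-0.90, -1.51 to -0.31) in 2 loops of about 300 kb to DTL, an adaptor gene of a ubiquitin ligase that acts at replicating DNA. Of these loops the 295 kb one carried most of the difference, with 21 counts in APH, 40 in DMSO and 27 in H2O. CD247, the gene of the T cell receptor zeta chain, had 52 against 69 counts (-0.72, -1.26 to -0.18) and was led by a 375 kb loop to GPA33 with 17, 34 and 29 counts.

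ZFHX3, a transcription factor gene, stood at -0.87 (-1.42 to -0.34) and TLK1, a kinase gene of chromatin assembly in S phase, at -0.83 (-1.30 to -0.37). In both the H2O library was low as well, at -0.71 and -0.57 against DMSO, and APH vs H2O was -0.16 (-0.75 to 0.44) and -0.33 (-0.75 to 0.09). The largest part of TLK1 was a 155 kb loop to METTL8 with 22 counts in APH, 47 in DMSO and 29 in H2O. CHTF18, a clamp loader subunit gene of sister chromatid cohesion whose start is printed above, shares its 75 kb loop with RPUSD1. That loop had 49 counts in APH, 67 in DMSO and 54 in H2O (-0.76, -1.32 to -0.21). On the gene APH listed 4 loops, H2O 3 and DMSO 1. The APH vs H2O value of the gene, 0.00 (-0.50 to 0.49), sums the loops listed in both APH and H2O and is not that of this loop alone. SAE1, a subunit gene of the SUMO-activating enzyme, had 42 against 59 counts (-0.80, -1.40 to -0.20). DNAH1, an axonemal dynein gene, had 46 against 63 (-0.76, -1.34 to -0.19). OSR2, a transcription factor gene, with LOC112268016 had 59 against 82 (-0.78, -1.29 to -0.28). FAM114A1 had 52 against 70 (-0.74, -1.28 to -0.20), but with loops assigned to gene ends it stood at 0.02, and at 24 counts or more it was not called (-0.58).

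LRRC28 was called lower in each of the 8 alternatives that gave it a value. CD247 lost its call with anchors matched within 1 bin (-0.46, -0.94 to 0.0082) and after division by the expected count (-0.36). That division also ended the calls of TLK1 (-0.39), DNAH1 (-0.50) and SAE1 (-0.51). TLK1 was not called either at 24 counts or more (-0.59, -1.37 to 0.17) or with a stricter adjusted p-value (-0.46), SAE1 not with gene ends (-0.27), and DNAH1 not with APH counts thinned (-0.78, -1.77 to 0.17). Against H2O the calls of SAE1 (-0.28), PACC1 (-0.35), DNAH1 (-0.39) and OSR2 (-0.41) ended, beside those of ZFHX3, TLK1 and CHTF18.

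Against H2O in place of DMSO, 31 of the 33 places called higher and 22 of the 24 called lower kept their sign, and 10 and 5 were called, where 1.90% and 0.952% of all places were called in those directions. This is no independent check, because the same APH library is in both comparisons. For the places named above the sign follows largely from the rule, which asks for a ratio beyond that of H2O vs DMSO. It is not strictly fixed, because the comparisons can sum different loops. Against H2O, 4 of the 10 higher and 3 of the 10 lower places were called. All 20 kept their call relative to loops of the same span. The named higher genes had a median loop span of 58.8 kb and the lower ones 222.5 kb, against 100 kb for all measured genes. Beyond the setting relative to the same span, the part of span in these gene values was not tested.

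Genes of 15 lists relevant to B cells, replication stress and cohesin were then examined, 719 genes in all, of which 295 had a shared loop and 165 had at least 100 counts. Of these 3 were called higher and 5 lower. The members' values are set against all 2954 measured genes, whose median log2 ratio was -0.01 and of which 2.00% were called. The lists were written with earlier results of these libraries known, so their counts only describe them.

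Genes at common fragile sites, the places that break under aphidicolin, lay on both sides of 0. Of 31 genes 16 had a shared loop and 10 were measured, with a median of 0.07, 5 below and 5 above 0, and 1 was called higher and 1 lower. The median was -0.09 against H2O, -0.07 with a stricter adjusted p-value and -0.33 with all listed counts as the scale. The lower gene was RAD51B, a recombination gene of very large size, with 80 counts in APH and 105 in DMSO in 4 loops (-0.70, -1.14 to -0.27). FHIT, the gene at the best known fragile site, had 77 against 86 (-0.47, -0.93 to -0.01) and was not called. DAB1 stood at 0.14, PDE4D at 0.13 and DMD at 0.22, and these 3 were not called. The list had 131 listed loops in APH and 82 in DMSO, a ratio of 1.60 where all genes gave 1.54. Among 80 measured genes of 500 kb or more the median was -0.05, with 2 called higher and 2 lower. Of these DENND1A, a gene of an exchange factor in vesicle traffic, had 126 against 66 counts (0.63, 0.18 to 1.08), and ZFHX3 and RAD51B are the lower 2. CAMTA1, a transcription activator gene, stood at 0.49 (0.21 to 0.78) in 6 loops and was not called.

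DNA replication and checkpoint genes had a median of -0.12 over 10 measured of 45, with 2 called lower, TLK1 and MCM10, and none higher. MCM10, which acts when the replicative helicase is activated, had 49 against 63 counts (-0.67, -1.24 to -0.11). The helicase subunit genes MCM5 and MCM3 stood at -0.39 (-0.90 to 0.11) and 0.29 (-0.16 to 0.75), and PCNA, the sliding clamp, at -0.13 (-0.38 to 0.12) with 283 against 251 counts. H2O vs DMSO had a list median of 0.09. The APH vs DMSO median turned to 0.01 over loops listed in all 4 libraries and to 0.21 at 24 counts or more, where 4 genes were measured. Of the genes of cohesin, its regulators and CTCF 6 of 27 were measured, with a median of -0.05, or 0.09 after division by the expected count. CHTF18 was called lower, while STAG3, a meiotic cohesin subunit gene, stood highest at 0.22 (-0.24 to 0.67) and NIPBL, the cohesin loader, at 0.17 (-0.42 to 0.77). No replication-dependent histone gene was measured. For p53 targets the median was -0.07 over 6 measured, or 0.17 against H2O and 0.06 after that division, from FDXR at -0.23 to BTG2 at 0.30, and CDKN1A, which encodes the cell cycle inhibitor p21, had 372 against 312 counts (-0.05, -0.27 to 0.17). In the list of cell cycle and mitosis genes the median was -0.01 over 8 measured, with ANAPC16 called higher and CDC25B lowest at -0.25, and it turned to between 0.03 and 0.09 under 5 alternatives. That list held 66 listed loops in APH and 69 in DMSO, a ratio of 0.957.

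The list with the lowest median among those with at least 5 measured genes was B cell receptor signalling, at -0.22 over 13 measured of 27, with 11 members below 0 and none called. VAV1, an exchange factor gene downstream of the receptor, was lowest with 52 against 59 counts (-0.49, -1.06 to 0.07). STIM1, the calcium sensor of the endoplasmic reticulum, had 212 against 222 counts in 7 loops (-0.37, -0.65 to -0.10), and VAV3 173 against 181 in 4 (-0.37, -0.68 to -0.06). GRB2, an adaptor gene, had 381 against 359 in 13 loops (-0.22, -0.43 to -0.01), and PIK3R1, a regulatory subunit gene of phosphoinositide 3-kinase, stood highest at 0.09 (-0.24 to 0.43). The median was 0.00 for H2O vs DMSO and -0.22 for APH vs H2O. It was also -0.22 over the 9 members left without GRB2, STIM1, RHOH and CSK, which an earlier account of these data had named. Members with an interval below 0 went from 3 to 1 with this removal. The whole list was written with earlier results known, so the equal median is no independent check. After division by the expected count the median was -0.09. NF-kB and Epstein-Barr virus responsive genes had a median of -0.14 over 8 measured, 7 of them below 0 and none called. The chemokine receptor gene CCR7 had 349 against 350 counts (-0.31, -0.53 to -0.09) and the adhesion gene ICAM1 was highest at 0.28 (-0.19 to 0.76). BCL2, an inhibitor of apoptosis, had 278 against 267 in 11 loops (-0.25, -0.50 to -0.0014).

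B cell identity genes lay near the median of all genes, at -0.05 over 12 measured, none called, or 0.05 against H2O. They ran from IKZF3, a lymphoid zinc finger factor gene, with 209 against 213 counts (-0.33, -0.62 to -0.05), to CD79A, a signalling chain of the receptor, with 80 against 55 (0.23, -0.28 to 0.76). EBF1, a master factor of the lineage, stood at -0.13 (-0.59 to 0.33) and MS4A1, which encodes CD20, at 0.01 (-0.40 to 0.44). Interferon and MHC genes had a median of -0.25 over 4 measured. IFIT3, an interferon-induced gene, was lowest with 63 against 76 counts in 1 loop of 20 kb (-0.58, -1.08 to -0.08), just short of the 1.5-fold limit, and CD274, the gene of the checkpoint ligand PD-L1, had 101 against 109 (-0.42, -0.82 to -0.01). T cell genes had a median of 0.08 over 5 measured, all above 0 and highest for CD5 at 0.17, and with all listed counts as the scale all 5 would lie below 0. The median was -0.03 against H2O, -0.0072 at 24 counts or more and -0.0017 with a stricter adjusted p-value. Myeloid and erythroid genes gave CEBPB at -0.14 and EPOR at 0.22. Ribosomal protein genes gave RPL11 at 0.12 and RPL3 at 0.15. In the HOX clusters HOXD12 and HOXD13, which share their loops, stood lowest at -0.33 (-0.86 to 0.20) and HOXB13 highest at 0.41 (-0.02 to 0.85). The median was -0.05 over 8 measured, or 0.02 with a stricter adjusted p-value. HOXC4, HOXC5 and HOXC6 had identical counts, 194 against 162 in 7 loops, and their value is the median of -0.05. The 8 genes thus hold fewer distinct sets of loops.

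**Figure D5:**
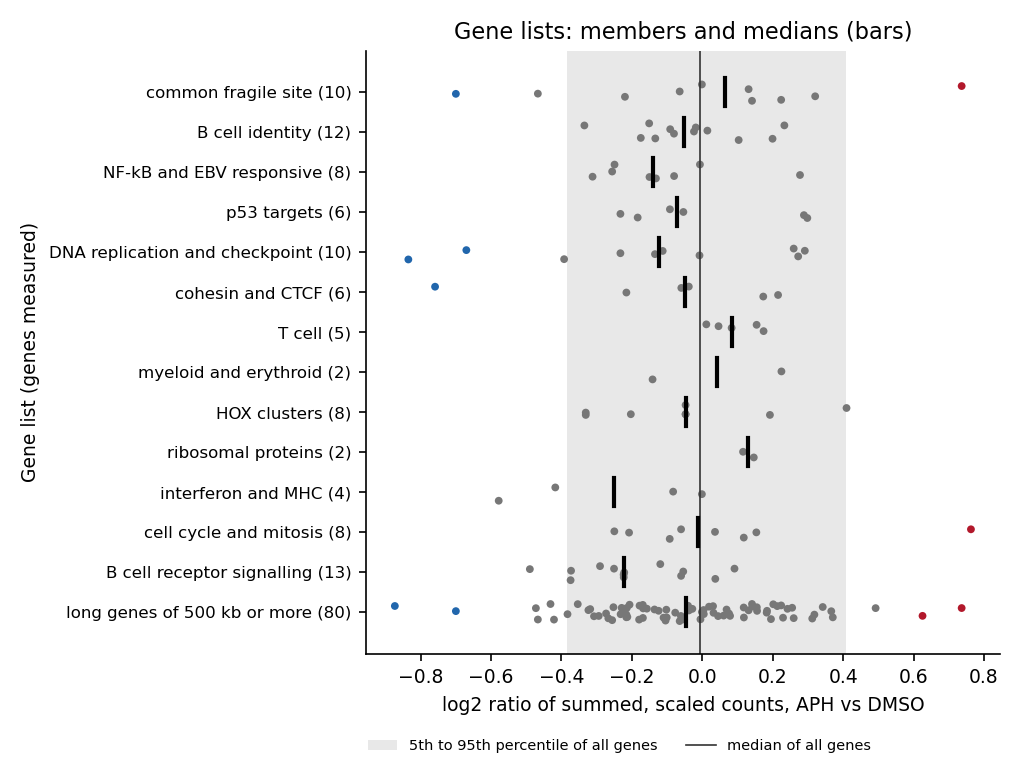
Each point is a measured member of a gene list (vertical axis, number measured in brackets) at its log2 ratio of summed, scaled counts in APH vs DMSO (horizontal axis), with bars at list medians, red for genes called higher and blue for genes called lower. The grey band spans the 5th to the 95th percentile of all measured genes, -0.38 to 0.41, and the bar of B cell receptor signalling lies at -0.22.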

How the data were processed

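SMC1 HiChIP libraries of GM12878 cells were used, 1 each for APH, DMSO and H2O, grouped by the treatment in the labels. The HU library entered only the setting restricted to loops listed in all 4 libraries. The submitters' processing notes name bcl2fastq 2.17, MACS3 3.0.1 and the build hg38. Neither the aligner nor the loop caller is named in those sources. Each library has 1 deposited loop list, and as it lacks a header the columns were identified by their values. Contact counts, as deposited, are whole and not normalized. A deposited signal column that is not whole was taken as the expected count. The deposited adjusted p-value lies below 0.01 for every loop. The deposited cluster size and type were used as given, in other words as labels of each loop, and a deposited −log10 p-value column was not used.

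Loops were matched by both bins and scaled by each library's total over loops in both lists, with no pseudocount, for APH vs DMSO, H2O vs DMSO and APH vs H2O, which share libraries. Ratios have 95% exact conditional binomial intervals and shares exact (Clopper-Pearson) ones, computed in Python 3.11.15 with scipy 1.17.1, pandas 2.3.3 and numpy 2.4.6, and drawn with matplotlib 3.10.9. They cover counting error only, and may be too narrow because PCR reads without molecular identifiers can come from the same molecule. Loops are not replicates, so p-values were not computed. A feature was called at 1.5-fold or more with an interval that excludes 1. Genes were 19974 protein-coding RefSeq genes of GRCh38.p14, and a gene was given every loop with an anchor on its body. In each comparison a gene or anchor sums the loops listed in both libraries compared, so its set of loops can differ between comparisons.

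Named genes are the 10 called places highest and lowest whose ratio exceeds that of H2O vs DMSO, with at least 100 counts, and the highest, lowest and called members of each list. Of these, 3 genes are not reported here. A few other list members are named for their function and were picked after their values were seen. Named as well are the 5 highest and lowest called loops and anchors, the 5 loops with most counts and the 5 genes with most loops in each unmatched set, and the 3 shared loops with most counts. The members and lists were chosen with earlier results of these data known. Of the 719 listed genes all were found in the table except ORAI1.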

Additional observations from a re-analysis of the deposited data

How the results depend on the processing

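No paired analysis was possible because each group has 1 library, and no library could be left out. The cause of the changes below was not tested except where the setting itself shows it. The share of DMSO loops listed in APH, 75.3%, went to 80.6% with anchors matched within 1 bin, 84.2% at 24 counts or more, 69.2% with APH counts thinned and 76.3% with a stricter adjusted p-value, and 67.0% of H2O loops were listed in APH. The excess of loops under 100 kb in the APH list (51.3% against 45.3%) grew to 9.60 points with thinning. The 501 called loops became 1756 with scaling by all listed counts, 245 at 24 counts or more, where fewer loops were tested, and 170 at 2-fold. Called anchors, 181, became 1112 with that scaling, 8 at 2-fold and 511 by the interval alone. Called genes, 59, became 587, 1 and 268 in the same order, and 92 against H2O. Called list members, 8, became 50 with that scaling, 4 at 24 counts or more and 5 after division by the expected count. Long minus short loops, -0.31, kept its sign at -0.23 against H2O, -0.25 with thinning and -0.086 after division. Gene-rich minus gene-poor chromosomes, 0.01, went to 0.074 against H2O and -0.035 relative to the same span. Loops inside 1 gene minus loops off genes, -0.01, went to -0.047 against H2O, 0.035 after division and -0.060 relative to the same span. Strong minus weak loops, 0.09, went to 0.049 over loops of all 4 libraries, 0.060 at 24 counts or more, 0.0064 with thinning, 0.027 after division and 0.041 relative to the same span. FAM114A1 reversed to 0.019 with loops assigned to gene ends. Of the other named genes none reversed over 169 recomputed values, and of the named loops and anchors none over 103 and 85. Calls were lost in 44 of 179 values of named genes, 8 of 85 of anchors and 8 of 85 of called loops. List medians moved by 0.1 or more in 34 of 138 values and changed sign in 25. Low counts limit single loops, since one with 12 counts in DMSO needed 30 in APH to be called.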
